A study of Arabidopsis thaliana with 6 samples.

Results

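LYC and Z-ISO are nuclear genes for a pair of plastid enzymes of carotenoid synthesis, and their transcripts were measured in dark-grown Arabidopsis thaliana seedlings of the pif1-2 mutant and of wild type. The members are the probe sets to which the platform annotation gives the single symbol LYC or Z-ISO. These are 259140_at for LYC (AT3G10230) and 262791_at for Z-ISO (AT1G10830), 2 of the 13513 probe sets with 1 gene name among 22746. The rule goes by symbol and uses no signal, but the pair was chosen with earlier results of these data known.

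The groups were pif1-2 seedlings, which carry the insertion Salk_072677 per the series title, and wild-type seedlings (Wt, Col-0), with 3 ATH1 arrays each. All seeds had 4 days of cold on MS medium and 1 hour of light to start germination, and then grew for 4 days in the dark at 21 °C. RNA came from whole seedlings, so that a change in the RNA of some cells and a change in the number of those cells cannot be told apart. The titles name pif1-2 as the only mutant allele, whereas the allele number in the samples' genotype and phenotype notes counts upwards from sample to sample, so groups were taken from the titles. Those notes describe very low PIF1 mRNA in the mutant and etiolated seedlings about 2 mm shorter than wild type. The labels call the replicates biological without saying whether seedlings were grown separately, so each p-value reflects only the spread among these arrays, which may be technical.

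Carotenoids are made in plastids from geranylgeranyl diphosphate, which phytoene synthase joins into colourless phytoene. Desaturases and isomerases then turn phytoene into red lycopene, and cyclases close its ends into the rings of the carotenes from which lutein and the other xanthophylls are made. Z-ISO acts in the middle of this route: it flips a cis bond in zeta-carotene, a step that light can bring about on its own, so that the enzyme is needed most in darkness and in non-green tissue. LYC acts after lycopene and adds beta rings, which gives β-carotene, and it also contributes a ring to α-carotene, the precursor of lutein. Etioplasts, the plastids of dark-grown seedlings, contain carotenoids before any chlorophyll is made. PIF1 is a basic helix-loop-helix factor that is degraded after phytochrome sees light and that, in the dark, is known to bind and restrain PSY, the phytoene synthase gene. The comparison asks how far the transcripts of these later enzymes depend on PIF1 in darkness.

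The deposited MAS5 signals had array medians from 184 to 199, and a scaled signal under 50 was found for 21.7% to 23.7% of the probe sets of each array. On the first principal component (26.9% of the variance) pif1-2 replicate 3 scored 47.9, far from the other 5 arrays at -13.2 to -5.23. Its actin 3-prime to 5-prime signal ratio, a measure of RNA quality, was 8.07, against 3.53 to 5.17 on the others. No named probe set belonged to PIF1 (AT2G20180), nor to At2g20810, the locus that the series title prints beside the allele, so the genotype of the arrays rests on the labels. Of the 4 fixed markers of dark-grown seedlings, PORA and HLS1 had no named probe set. PORB, a protochlorophyllide oxidoreductase, averaged 6800 ± 2175 in pif1-2 and 9261 ± 1268 in wild type (SD, n = 3 each). WAG2, a protein kinase of the apical hook, averaged 547 ± 146 in pif1-2 and 954 ± 104 in wild type. The groups overlapped at PORB, while every pif1-2 array lay below every wild-type array at WAG2. In the limma fit described below, the unadjusted p was 0.033 for PORB (adjusted 0.637) and 0.00148 for WAG2 (adjusted 0.323). The markers were chosen with earlier results of these data known, so these values are a description. The 3 root markers tested averaged 150 to 258 in pif1-2 and 144 to 350 in wild type, and the groups overlapped at each. LHCB4.1, PSAN and RCA, fixed as markers of light-exposed leaves, had mean signals from 3800 to 10897 in pif1-2 and from 2947 to 9962 in wild type, so these transcripts were also present in darkness. The groups overlapped at each, and PSAN was higher in pif1-2 (limma unadjusted p = 0.0415, adjusted p = 0.637). LHCB1.1, also on that list, had no named probe set. The dry seed markers had 0 named probe sets.

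LYC gave a steady signal in both genotypes. The scaled signals were 942, 905 and 817 on the pif1-2 arrays of replicates 1, 2 and 3, against 948, 987 and 1016 on the wild-type arrays of replicates 1, 2 and 3. Every pif1-2 array lay below every wild-type array, but the highest pif1-2 signal and the lowest wild-type signal were only 6.28 units apart. LYC averaged 888 ± 64.2 in pif1-2 and 984 ± 33.9 in wild type (SD, n = 3 each), that is 90.3% of the wild-type level. The SD was 7.23% of the mean in pif1-2 and 3.45% in wild type. Fold changes were taken as pif1-2 minus wild type on the log2(signal + 16) scale, which slightly understates the change of weak probe sets, and were tested with limma over all 17695 probe sets whose mean signal reached 50. The log2 fold change of LYC was -0.15 (SE 0.13, limma adjusted p = 0.845, unadjusted p = 0.297). It did not pass the threshold of 0.05. All 3 pif1-2 arrays were below all 3 wild-type arrays for 6.58% of the probe sets tested (1165) and above them for 6.49%, so the lack of overlap at LYC was no rarity. With quantile normalization the groups overlapped at LYC.

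Z-ISO varied more from array to array. The scaled signals were 404, 405 and 311 on the pif1-2 arrays, against 381, 426 and 458 on the wild-type arrays. Replicates 1 and 2 of pif1-2 lay inside the wild-type range, and replicate 3 alone lay under it. Z-ISO averaged 373 ± 54.1 in pif1-2 and 422 ± 38.3 in wild type (SD, n = 3 each), or 88.5% of the wild-type level, with an SD of 14.5% of the mean in pif1-2 and 9.09% in wild type. The log2 fold change was -0.18 (SE 0.16, limma adjusted p = 0.847, unadjusted p = 0.305). This was also short of the threshold, and the groups overlapped.

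**Figure D1:**
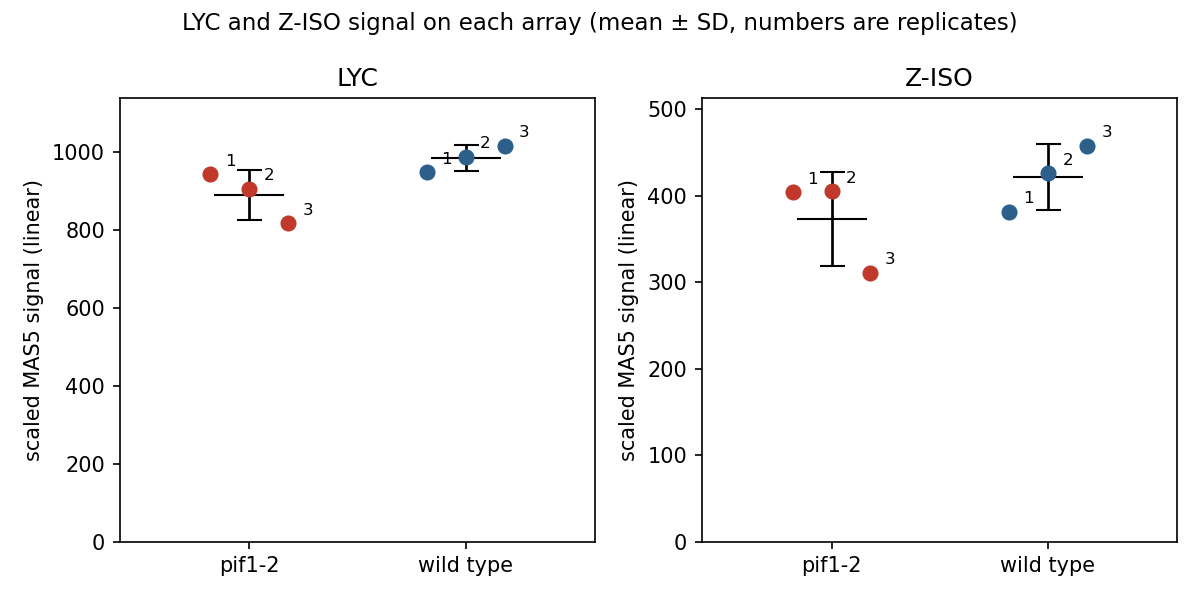
Scaled MAS5 signal (linear scale, vertical axis) of LYC and Z-ISO on each array, for pif1-2 (left) and wild type (right), with points numbered by replicate and black bars for the mean ± SD of 3 arrays. LYC lies between 817 and 942 in pif1-2 and between 948 and 1016 in wild type, while 2 of the 3 Z-ISO signals in pif1-2 fall inside the wild-type range.

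The fits give an interval for the change of each transcript. The 95% interval of the fold change, pif1-2 over wild type, ran from 0.736 to 1.11 for LYC around an estimate of 0.903, and from 0.692 to 1.13 for Z-ISO around 0.886. Larger losses or gains than these bounds lie outside the intervals, which hold for limma's model of the spread and for these arrays. The bounds moved when an array was left out. On the log2 scale the lower bound of LYC was -0.54 without pif1-2 replicate 1, against -0.44 with all arrays. That of Z-ISO was -0.64 without wild type replicate 1, against -0.53. Without wild type replicate 3 the upper bounds were 0.24 for LYC and 0.31 for Z-ISO, against 0.15 and 0.18. The SE of 0.13 for LYC and 0.16 for Z-ISO lay below the median SE of 0.19 over all probe sets tested. Through the intensity trend, limma's SE depends in part on signal level, and no comparison at matched signal was made. In the whole comparison 0.0113% of the probe sets passed the threshold (2 of 17695, both lower in pif1-2), and 7.67% had an unadjusted p under 0.05. Neither LYC nor Z-ISO was among either set. For LYC 53.5% of the probe sets had a larger absolute log2 fold change, and for Z-ISO 46.3%, which puts both changes in the middle of the distribution of sizes. The median log2 fold change of all probe sets was 0.00095.

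**Figure D2:**
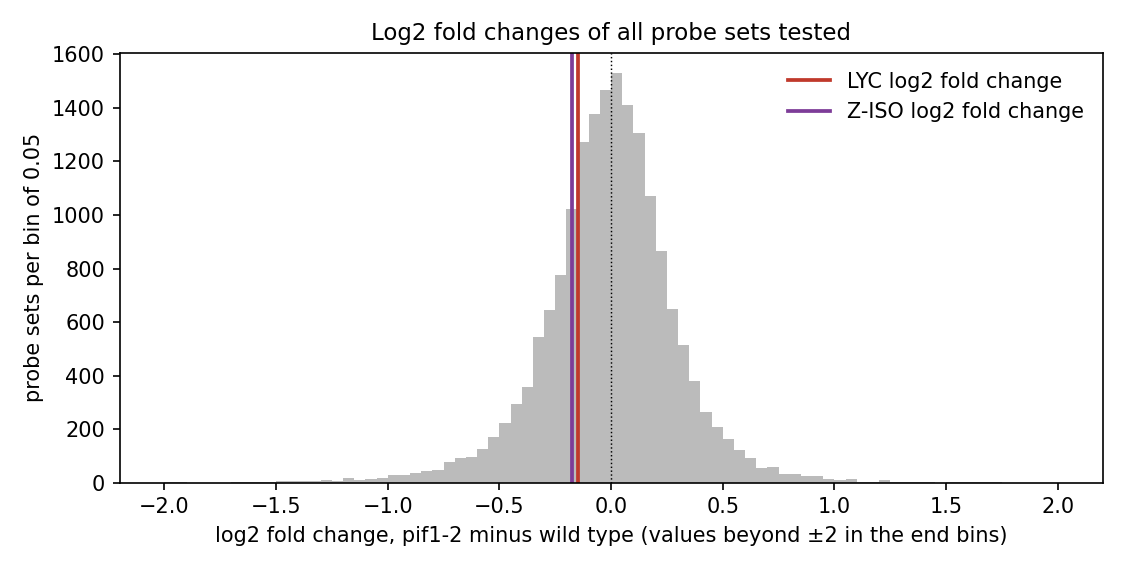
Number of probe sets (vertical axis) by log2 fold change, pif1-2 minus wild type (horizontal axis, bins of 0.05), over the 17695 probe sets tested, with vertical lines at LYC and Z-ISO. LYC at -0.15 and Z-ISO at -0.18 lie within the central mass, near the median absolute change of 0.16.

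Both genes had their lowest signal of all 6 arrays on pif1-2 replicate 3, the array with the high actin ratio. LYC stood there at 83.1% of the wild-type mean, against 95.8% and 92.0% on pif1-2 replicates 1 and 2. Z-ISO stood at 73.7%, against 95.9% and 96.0%. Of all probe sets tested, 24.3% had their lowest signal on that array. Both genes were highest on wild type replicate 3, as were 17% of the probe sets. Without pif1-2 replicate 3 the log2 fold change was -0.089 for LYC (95% interval -0.39 to 0.22) and -0.054 for Z-ISO (-0.40 to 0.29), each nearer to 0 than under any other alternative tried for that gene. The part of RNA quality in the LYC and Z-ISO values was not tested.

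**Figure D3:**
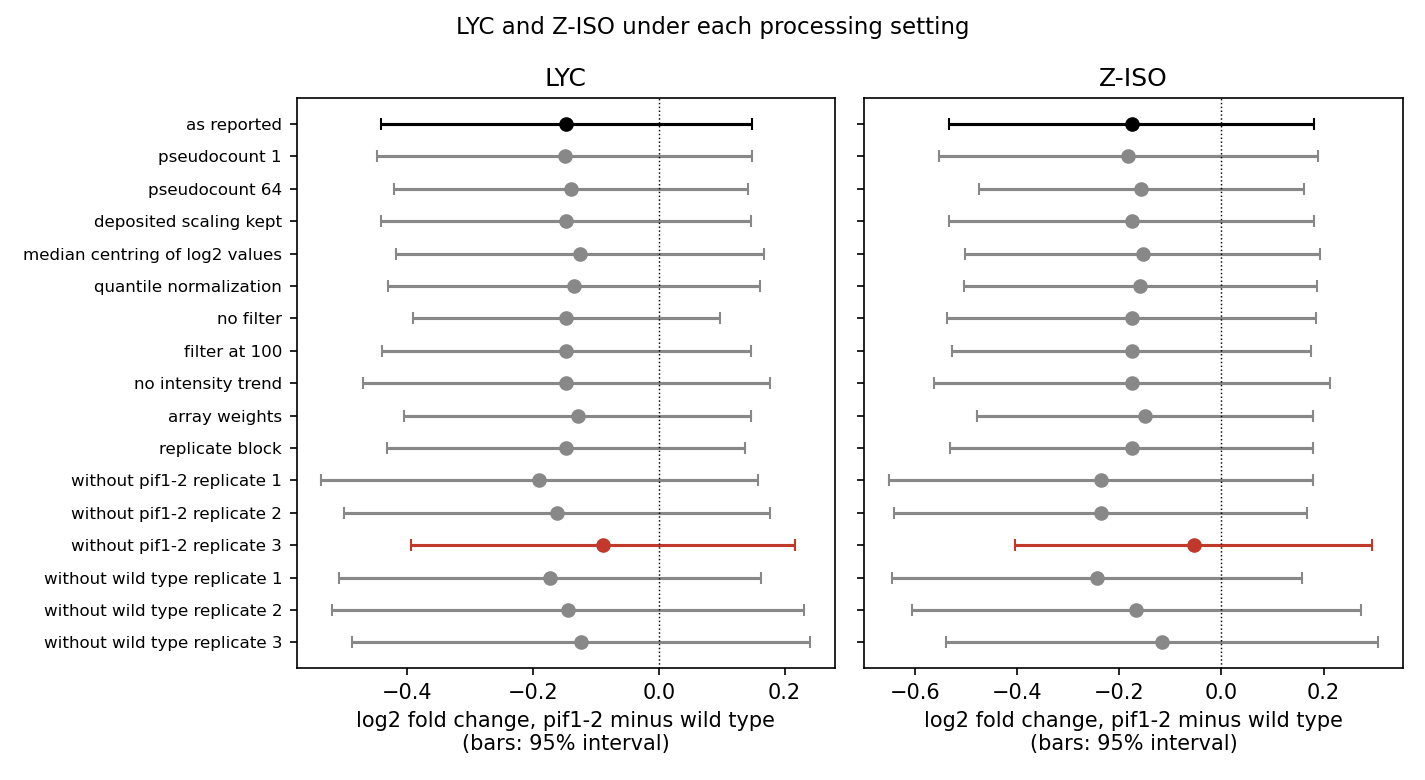
Log2 fold change, pif1-2 minus wild type (horizontal axis, bars are 95% intervals), of LYC and Z-ISO under the reported setting (black) and each alternative (grey), with the setting that leaves out pif1-2 replicate 3 in red. The reported estimate and its 16 alternatives are below 0 for each gene with intervals that include 0, and the estimates nearest 0 are those without pif1-2 replicate 3.

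The changes of the 2 genes could not be separated. Within each array the log2 signal of Z-ISO was subtracted from that of LYC, which removes any scaling of the whole array. The group means of this difference were 1.22 ± 0.11 in pif1-2 and 1.20 ± 0.079 in wild type (SD, n = 3 each). Relative to Z-ISO, LYC thus moved by 0.028 on the log2 scale, less than either SD (exact two-sided permutation test, p = 0.6, where 3 arrays against 3 cannot go below 0.1). The sign of this small difference turned without pif1-2 replicate 3 and without wild type replicate 3.

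The rest of the carotenoid route was barely represented among probe sets with 1 gene name. Of 7 core enzymes on the fixed list, from phytoene synthase to the cyclases, only LYC and Z-ISO had one. The 8 xanthophyll genes, the 12 genes of carotenoid cleavage and abscisic acid synthesis, and the 11 genes of the plastid pathway that supplies the isoprene units had 0. PSY, PDS3, ZDS, CRTISO and LUT2 were therefore not analysed here. Over 8 isoprenoid lists, 12 of 76 genes had a named probe set and all 12 were tested. With limma 0 of the 12 passed the threshold, and at an unadjusted p under 0.05 there were 3 lower and 0 higher in pif1-2, against 4.36% lower among all probe sets. Their median log2 fold change was -0.16, with 9 of 12 below 0, where 49.9% of all probe sets were below 0. Without pif1-2 replicate 3 the median was -0.10, with 8 of 12 below 0. When LYC and Z-ISO were set aside, 7 of the other 10 were below 0 over all arrays, with a median of -0.20. The 3 most negative of these 10 were the 3 with an unadjusted p under 0.05, and the rest lay on both sides of 0. The lists were chosen with earlier results of these data known. The counts set beside the shares of all probe sets are therefore a description and no test.

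The genes with an unadjusted p under 0.05 belonged to the list of other proteins that make or handle geranylgeranyl chains. LIL3:1, which tethers geranylgeranyl reductase to the thylakoid membrane, averaged 522 ± 20.8 in pif1-2 and 1003 ± 72.8 in wild type (log2 fold change -0.92, 95% interval -1.22 to -0.62, limma adjusted p = 0.112). Its relative LIL3:2 was at -0.68 (-1.11 to -0.26) and AT1G74470, the geranylgeranyl reductase, at -0.34 (-0.59 to -0.081). Without pif1-2 replicate 3 the log2 fold changes were -0.89 for LIL3:1, -0.42 for LIL3:2 and -0.31 for AT1G74470. The intervals of LYC, -0.44 to 0.15, and of Z-ISO, -0.53 to 0.18, lay wholly above that of LIL3:1 and overlapped those of LIL3:2 and the reductase. The difference between these changes was not tested, since LIL3:1 stands out by its value.

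The other 7 isoprenoid genes had log2 fold changes from -0.30 to 0.32. NDC1, a plastid NAD(P)H dehydrogenase, averaged 146 ± 44.2 in pif1-2 and 179 ± 17.5 in wild type, with a log2 fold change of -0.30 (SE 0.23). The other loci on the lists carry no gene symbol in the annotation. AT5G61670 and AT5G06130, both of the list of carotenoid cofactors and regulators, were at 0.079 (SE 0.13) and -0.070 (SE 0.15). AT1G78620, of the geranylgeranyl list, was at -0.25 (SE 0.18), and AT2G35490, of the plastoglobule list, at 0.018 (SE 0.16). From the list of the cytosolic mevalonate route, AT1G31910 was at -0.15 (SE 0.13) and AT3G54250 at 0.32 (SE 0.25). None of these 7 passed, and the interval of each included 0. Leaving out pif1-2 replicate 3 moved 5 of them by over 1.5 times: NDC1 to -0.13, AT1G78620 to -0.16, AT5G61670 to 0.13, AT2G35490 to 0.096, and AT5G06130 to 0.032 with its sign turned. The lowest signal lay on pif1-2 replicate 3 for 9 of the 12 isoprenoid genes, LYC and Z-ISO included, against 24.3% of all probe sets tested. With lists chosen after earlier results were known, this count is a description.

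**Figure D4:**
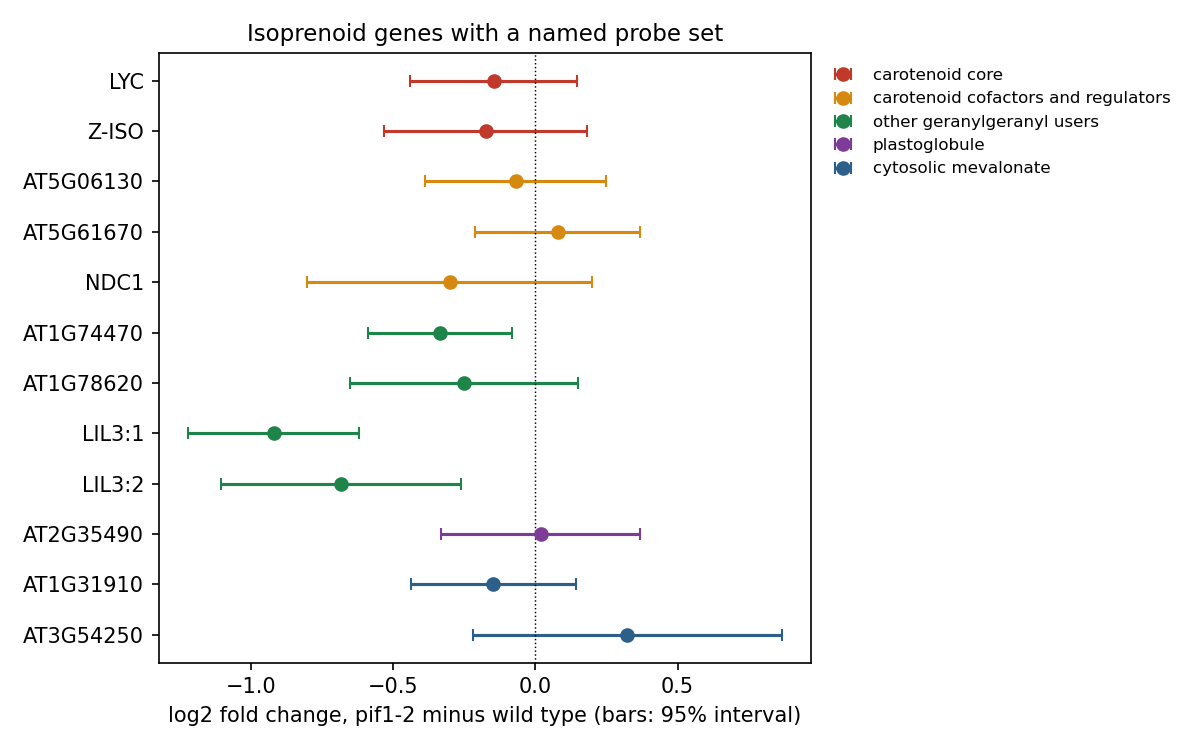
Log2 fold change, pif1-2 minus wild type (horizontal axis, bars are 95% intervals, n = 3 arrays each), of the 12 isoprenoid genes with a named probe set, coloured by list. LYC and Z-ISO lie close to 0 with intervals that include it, and LIL3:1, LIL3:2 and AT1G74470 are the only genes whose intervals do not.

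LYC and Z-ISO resembled each other across the arrays. Likeness was measured as the root mean square difference between 2 log2 profiles, each centred on its own mean over the 6 arrays, so that a small value means a similar course and flat genes lie near each other. Between LYC and Z-ISO it was 0.081. Of 9980 other probe sets with 1 gene, 144 lay nearer to LYC and 64 nearer to Z-ISO, where the median distance was 0.25 from LYC and 0.28 from Z-ISO. Both profiles were flatter than most: their root mean square deviation from their own mean was 0.099 for LYC and 0.17 for Z-ISO, against a median of 0.23. All profiles share the same 6 arrays and their quality, so these distances are a description.

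The genes nearest to LYC were AT5G58375 (0.036), LigB (0.036), BZIP60 (0.037), AT3G02700 (0.041) and AT5G21090 (0.041). BZIP60 encodes a transcription factor of the unfolded protein response in the endoplasmic reticulum. It averaged 1399 ± 106 in pif1-2 and 1587 ± 19.6 in wild type. Nearest to Z-ISO were AT5G65560 (0.027), AT1G33490 (0.043), AT1G73170 (0.044), AT1G49310 (0.045) and AT5G20130 (0.047), none with a symbol in the annotation. The log2 fold changes of these 10 genes ran from -0.21 to -0.10, as the choice by likeness favours, and 0 passed the threshold with limma or had an unadjusted p under 0.05.

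**Figure D5:**
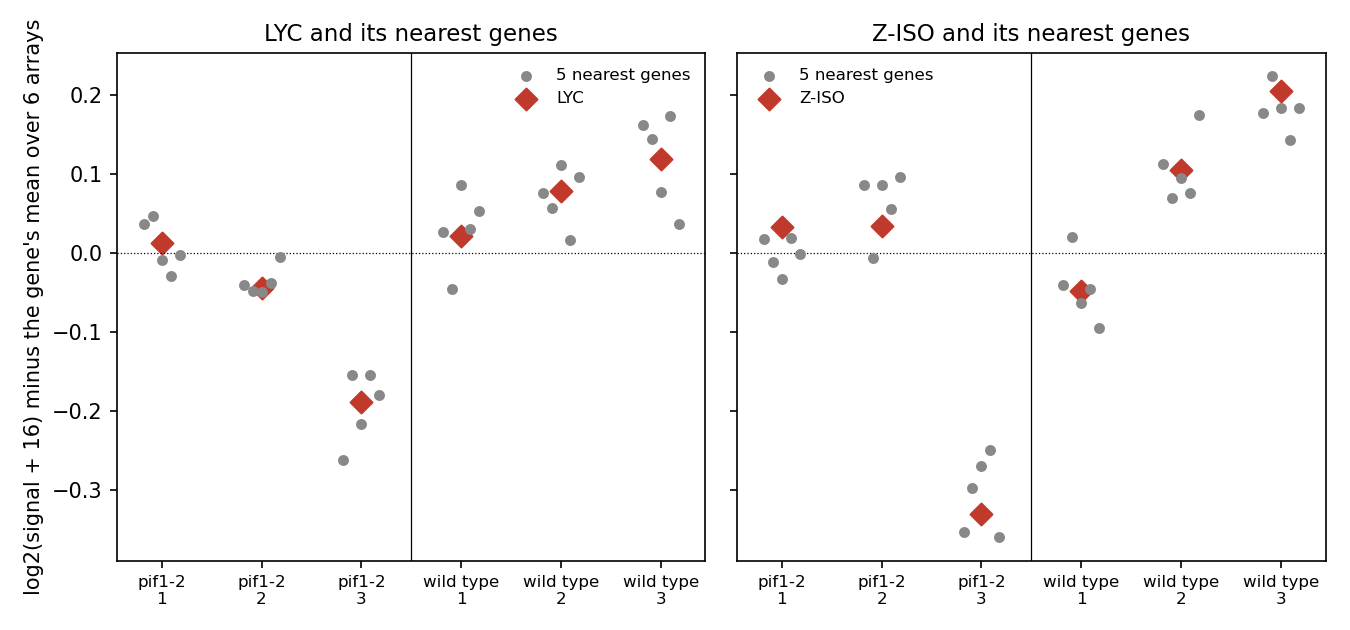
Log2(signal + 16) minus the gene's own mean over the 6 arrays (vertical axis), by array with pif1-2 left and wild type right, for LYC and Z-ISO (red diamonds) and the 5 genes nearest to each (grey points). The lowest points of both genes and of their nearest genes are those of pif1-2 replicate 3.

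Each gene was read by 1 probe set. The RefSeq gene table lists 2 transcripts for LYC and 3 for Z-ISO, and a single probe set gives no value for each transcript alone. The 2 signals also say nothing about which transcript is more abundant, since probes differ in how strongly they bind.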

How the data were processed

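Transcripts were measured on 6 one-colour ATH1 arrays, 1 per sample, from 20 µg of total RNA each. The authors deposited 1 MAS5 signal per probe set, an intensity on a linear scale, scaled per array (2% trimmed mean of 500, as the values show). MAS5 is named in the submitters' processing notes, with no version or settings. MAS5 summarises each array alone, and its weak signals tend to be noisy. From there, 64 control probe sets were set aside, the same trimmed mean was set to 500 again over the others, 5051 probe sets with a mean under 50 were left out, and log2(signal + 16) of the other 17695 was tested with limma 3.58.1 under R 4.3.3 (lmFit, eBayes with an intensity trend, two-sided, Benjamini-Hochberg over all probe sets). The number of arrays limits the precision. The fit was also run on simulated data with known changes. Those data had independent noise on every array and no outlying array. They therefore cannot show how the fit behaves with an array like pif1-2 replicate 3.

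Groups and replicate numbers came from the titles. Genes were named from the platform annotation, in which 8730 probe sets were not listed and 503 had several genes. Of the named ones 13436 matched the RefSeq table of assembly TAIR10.1, used for names and transcript counts only. The members, lists and markers were chosen with earlier results of these data known. Named were LYC, Z-ISO, every list gene with a tested probe set, and the 5 genes nearest to each member. Alternatives covered pseudocount, scaling, filter, a replicate block, array weights, the variance model and each array left out in turn.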

Additional observations from a re-analysis of the deposited data

How the results depend on the processing

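The log2 fold changes of LYC and Z-ISO kept their sign and stayed short of the threshold under all 16 alternatives tried for each. They ran from -0.19 to -0.089 for LYC without 1 array and from -0.15 to -0.13 under the other settings, and for Z-ISO from -0.24 to -0.054 and from -0.18 to -0.15. The limma adjusted p lay between 0.743 and 1.00 for LYC and between 0.732 and 1.00 for Z-ISO. The change of LYC relative to Z-ISO ran from -0.035 to 0.075 without 1 array, with the sign turned when replicate 3 of either group was left out (-0.035 for pif1-2, -0.0075 for wild type), and the cause was not tested.

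With the replicate number as a block, the log2 fold changes were -0.15 for LYC (limma adjusted p = 0.743) and -0.18 for Z-ISO (0.756), and 45 probe sets passed in place of 2. The change of LYC relative to Z-ISO was 0.028 (exact sign-flip test, p = 1). That test flips the signs of the 3 differences between same-numbered arrays, in place of the permutation used above, and cannot reach 0.05. Same-numbered arrays had deviations that correlated at 0.25, 0.099 and 0.088 across probe sets, each the best match of its arrays, which is a hint from the data and not the design. The number of probe sets that passed was 1 with median centring, quantile normalization, no filter or no intensity trend, 8 with array weights, and 0 to 7 without 1 array. The 0 came from leaving out replicate 2 or replicate 3 of wild type, where 816 and 912 had an unadjusted limma p under 0.05. Without wild type replicate 1, 7 passed.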
